A study of Mus musculus with 8 samples.

Results

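The genes described here carry out the mitochondrial route of apoptosis once it has been set off: the outer membrane pore formers Bax, Bak1 and Bok, the apoptosome genes Apaf1 and Casp9, the effector caspase gene Casp6, the release factor gene Diablo and the caspase inhibitor gene Xiap. Of these 8 genes, chosen by name, 7 were measured by a probe set annotated to that gene alone, out of 22180 genes so measured. Each has 1 such probe set, and a second probe set for Diablo, shared with B3gnt4, was not used. No probe set used here names Bax, which was therefore not analysed here.

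Medulloblastomas, tumours of the cerebellum, were collected from 15-day-old mice of 2 genotypes, with 4 animals in each. The control tumours were Math1-Cre/SmoM2, in which Cre driven by the Math1 (Atoh1) promoter switches on a constantly active Smoothened and so the Sonic hedgehog pathway in granule neuron precursors. The Bcl2l1-deleted tumours were Math1-Cre/SmoM2/Bcl2l1 f/f and lost floxed Bcl2l1 wherever that Cre acts, so that cells outside the Math1 lineage keep the gene. No animal received any agent. Total RNA of each tumour was hybridised to 1 Affymetrix whole-transcript array, and all values are RMA expression values on the log2 scale, where a difference of 1 is a 2-fold difference.

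Bcl2l1 encodes BCL-xL, which holds the pore formers BAX and BAK in check on the outer mitochondrial membrane. When they are set free, the membrane is opened and cytochrome c and SMAC (the product of Diablo) leave the mitochondrion. Cytochrome c makes APAF1 assemble into the apoptosome, which activates caspase 9 and through it the effector caspases, while SMAC removes the block that XIAP puts on caspases. Granule neuron precursors are known to be primed for this route, and most of it is controlled on the level of proteins, which arrays do not measure.

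The labels and the arrays were checked first. Bcl2l1 stood at 5.46, 5.46, 5.69 and 5.32 in Bcl2l1-deleted replicates 1 to 4 and at 6.88, 6.57, 6.93 and 6.98 in control replicates 1 to 4, without overlap, a difference of -1.36 ± 0.16 (log2 ± SE, limma, adjusted p = 0.00509). The position of its probe set relative to the floxed exons was not analysed here. The median of 1394 chemosensory receptor genes (Olfr and Vmn), silent in most brain cells and used as a measure of background, was 2.79 to 2.92 on the deleted arrays, 2.94 to 3.09 on 3 controls and 3.6 on control replicate 2. The genotypes did not overlap in this median. As a covariate below it therefore also takes up part of any genotype difference, and the 2 cannot be told apart. The interquartile range over the named genes was 2.396 on control replicate 2 and 3.29 to 3.659 on the other arrays. Control replicate 2 also correlated with the other arrays at 0.881 to 0.925 over all probe sets, against at least 0.956 for all other pairs. It therefore stood apart, and the value without it is given for each member and for each pathway gene or pair named whose difference moved by over 1.5 times or whose call changed. The median of the 15526 genes tested was 0.17 higher in the Bcl2l1-deleted tumours, so a relative change below is the fitted change minus this shift. It is given for the fit to all 8 arrays only, since the shift was 0.08 without control replicate 2 and 0.03 after quantile normalization. The 8 granule neuron precursor markers, Atoh1 among them, had a mean log2 level of 9.92 to 10.04 in the deleted tumours and 9.56 to 10.03 in the controls, and 0 of 8 passed the test between genotypes (1 at an unadjusted p under 0.05, limma).

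None of the 7 execution genes passed an adjusted p of 0.05 (limma, Benjamini-Hochberg over the 15526 genes tested), and 0 of 7 had an unadjusted p under 0.05. Over all tested genes 1013 passed, which is 6.52%, and 4730 had an unadjusted p under 0.05, which is 30.5%. The fitted changes of the 7 genes ran from -0.06 for Casp9 to 0.64 for Casp6, with a median of 0.27, beside the median of 0.17 over all tested genes. For 6 of the 7 the 95% interval of the change lay within 1 log2 unit of 0, so that it did not reach a 2-fold difference either way, and Casp6 was the exception. Relative to the median gene the change was 0.46 for Casp6, 0.23 for Diablo, 0.21 for Xiap and 0.10 for Bok. For the other members it is given below. Removing control replicate 2 left the count at 0 of 7, while 2100 of the 15526 genes tested passed. The median change was then 0.22 for the 7 genes and 0.08 over all tested genes. In RNA of whole tumours, fewer cells of a type and less RNA per cell cannot be told apart.

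**Figure D1:**
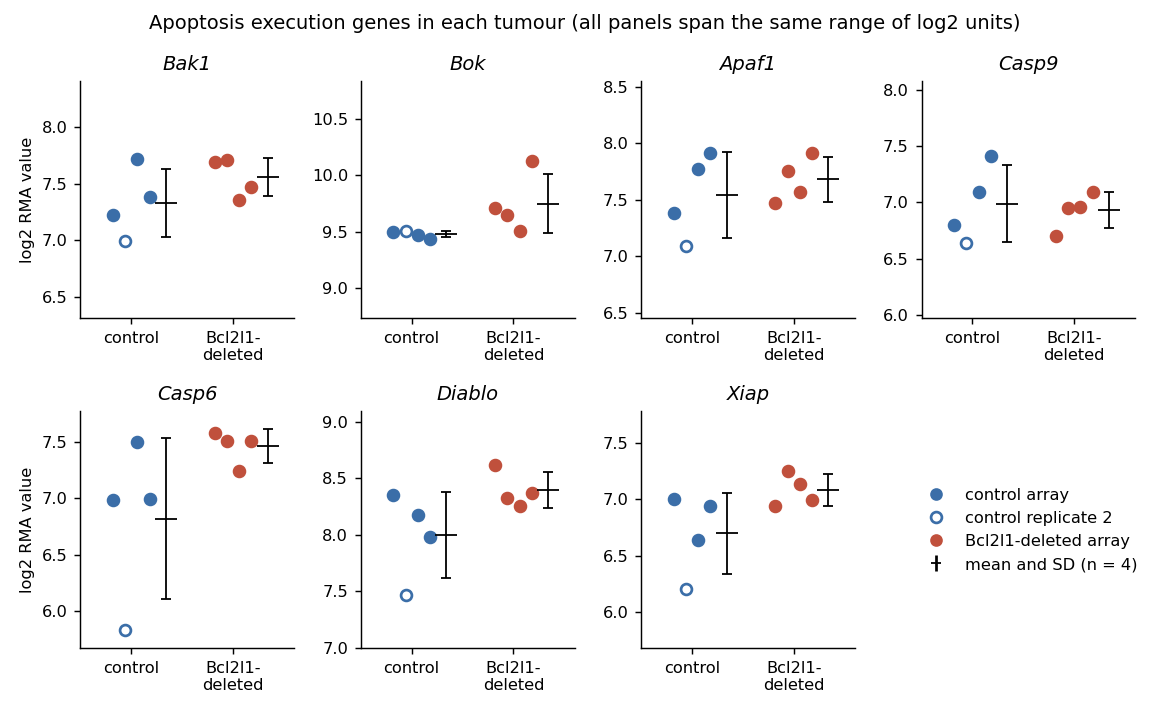
Each panel plots 1 gene, with the log2 RMA value on the vertical axis and the 4 control and 4 Bcl2l1-deleted arrays as points, the mean and SD beside them. Control replicate 2 (open circle) is the lowest of all 8 arrays for Bak1, Apaf1, Casp9, Casp6, Diablo and Xiap, and only for Bok do the groups not overlap.

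Bak1, whose product sits in the outer mitochondrial membrane and forms pores there, was measured at 7.69, 7.71, 7.36 and 7.47 in Bcl2l1-deleted replicates 1 to 4. The controls stood at 7.22, 6.99, 7.72 and 7.38 in the same order. Control replicate 3 was as high as the highest deleted tumours, and the groups overlapped. The means were 7.56 ± 0.17 and 7.33 ± 0.30 (SD, n = 4 each), a difference of 0.23 ± 0.18 (log2 ± SE, 95% interval -0.17 to 0.63, adjusted p = 0.391). Relative to the median gene this was 0.06, and without control replicate 2 the difference was 0.12 (adjusted p = 0.618). The sign followed the scaling: it was -0.03 when each array was centred on its tested genes and -0.02 after quantile normalization.

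Bok, another pore former that is less subject to BCL-xL and resides largely on the endoplasmic reticulum, read 9.71, 9.65, 9.51 and 10.13 in the deleted tumours. Its 4 control values were nearly equal, at 9.50, 9.51, 9.47 and 9.44. It was the 1 gene of the 7 whose groups did not overlap (exact permutation test, two-sided, p = 0.0286, the smallest that 4 against 4 allows), but the gap between the groups was 0.0037 log2 units. Over all tested genes 23.4% had groups that did not overlap. The difference was 0.27 ± 0.16 (95% interval -0.08 to 0.63, adjusted p = 0.264), and 0.15 without Bcl2l1-deleted replicate 4, the highest of the 8 arrays. Centring on the genes tested gave 0.01. Control replicate 2 did not stand out here, and the difference without it was 0.28 (adjusted p = 0.221).

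Apaf1, the scaffold of the apoptosome, was at 7.47, 7.75, 7.57 and 7.91 in the deleted tumours and at 7.38, 7.09, 7.77 and 7.91 in the controls. The highest array of each group read the same value. The difference of 0.14 ± 0.20 (95% interval -0.31 to 0.58, adjusted p = 0.652) was below the median gene by 0.04, and it was -0.01 without control replicate 2.

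Casp9, the initiator caspase that the apoptosome activates, read 6.70, 6.95, 6.96 and 7.09 in the deleted tumours. The controls read 6.80, 6.64, 7.09 and 7.41, so that both the lowest and the highest of the 8 values were controls. It was the only one of the 7 genes with a fitted change below 0, at -0.06 ± 0.19 (95% interval -0.47 to 0.35, adjusted p = 0.841). Relative to the median gene it was -0.23, and without control replicate 2 the fitted change was -0.18 (adjusted p = 0.472). Its sign turned without control replicate 4 (0.08) and without Bcl2l1-deleted replicate 1 (0.01).

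Casp6, an effector caspase known for cutting lamin A, had the smallest p of the 7. The deleted tumours lay close together at 7.58, 7.51, 7.24 and 7.51. The controls spread over 6.98, 5.83, 7.50 and 6.99, with control replicate 2 far below and control replicate 3 inside the range of the deleted tumours. The means were 7.46 ± 0.15 and 6.82 ± 0.71 (SD, n = 4 each). The difference was 0.64 ± 0.30 (1.55-fold, 95% interval -0.02 to 1.29, adjusted p = 0.173; exact permutation test, two-sided, p = 0.0571). Without control replicate 2 it was 0.30 (adjusted p = 0.207), and it was 0.05 once the receptor median entered as a covariate. The nearest it came to the threshold was an adjusted p of 0.0874, without control replicate 3.

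Diablo, whose product SMAC frees caspases from XIAP, stood at 8.62, 8.33, 8.26 and 8.37 in the deleted tumours and at 8.35, 7.47, 8.18 and 7.98 in the controls. Control replicate 1 lay within the range of the deleted tumours and the other 3 controls below it. The difference was 0.40 ± 0.20 (95% interval -0.04 to 0.84, adjusted p = 0.197), and 0.22 without control replicate 2. Xiap, the caspase inhibitor that SMAC displaces, showed a difference of much the same size. It read 6.94, 7.25, 7.14 and 6.99 in the deleted tumours and 7.00, 6.21, 6.64 and 6.94 in the controls, a difference of 0.38 ± 0.19 (95% interval -0.04 to 0.80, adjusted p = 0.203), and again 0.22 without control replicate 2. For both genes all 4 deleted tumours lay above the control mean, and the groups overlapped.

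**Figure D2:**
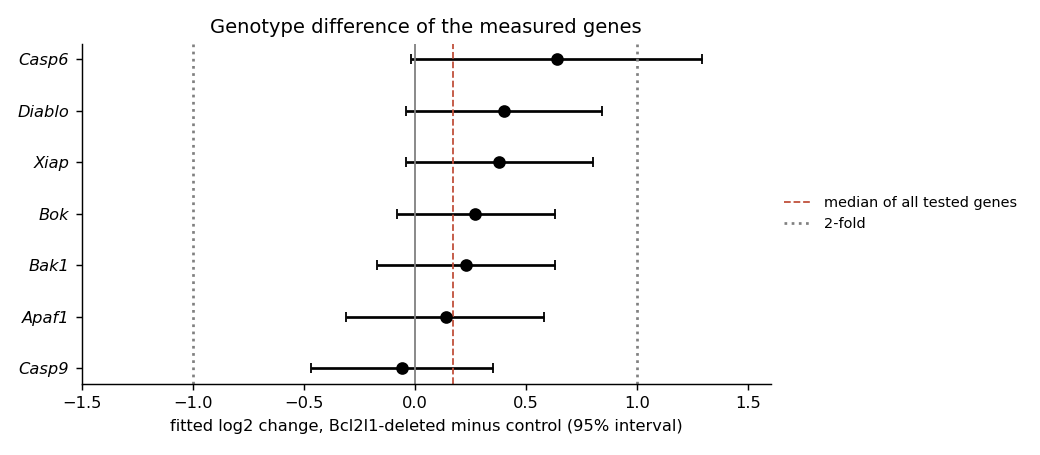
The fitted log2 change of each of the 7 genes (points) with its 95% interval (bars), Bcl2l1-deleted minus control, beside no change, a 2-fold change (dotted) and the median of all tested genes at 0.17 (dashed). All 7 intervals include 0, and only that of Casp6 reaches past a 2-fold change.

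Partners within the route were compared on each array, which removes a shift common to an array. The 4 pairs that could be formed were tested by exact permutation over the 70 regroupings of the arrays, with adjustment over the 4. A single pair whose groups separated completely would reach an adjusted p of 0.114 by this test. The difference of Bak1 minus Bok differed by -0.04 between genotypes (exact permutation p = 0.857, adjusted p = 0.914; -0.16 without control replicate 2) and that of Diablo minus Xiap by 0.02 (exact permutation p = 0.914, adjusted p = 0.914; 0.01 without that array). Diablo minus Xiap was 1.32 ± 0.28 in the deleted tumours and 1.30 ± 0.21 in the controls (SD, n = 4 each), so the mean distance between the antagonist and its target was nearly equal in the genotypes. Apaf1 minus Casp9 was 0.76, 0.80, 0.61 and 0.83 in the deleted tumours and 0.58, 0.45, 0.68 and 0.51 in the controls. This distance was 0.20 wider in the deleted tumours, with only control replicate 3 reaching into their range (exact permutation p = 0.0571, adjusted p = 0.114), and 0.16 to 0.25 under the 11 other settings. Casp9 minus Casp6 was lower by 0.70 in the deleted tumours (-0.53 ± 0.25 against 0.16 ± 0.56, exact permutation p = 0.0571, adjusted p = 0.114), where control replicate 2 stood at 0.81 and the others at -0.18, -0.40 and 0.42. The difference was -0.48 without control replicate 2. No pair passed.

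Of the 7 genes, 6 shared a feature that did not follow genotype. Control replicate 2 held the lowest of the 8 values for all but Bok. It held the lowest value of 54.6% of all tested genes. Against the mean of the other 3 controls it was lower by 1.33 log2 units for Casp6, by 0.70 for Diablo, by 0.66 for Xiap, by 0.60 for Apaf1, by 0.46 for Casp9 and by 0.45 for Bak1. The deleted tumours differed from those 3 controls by -0.18 for Casp9 to 0.30 for Casp6. The SD of the controls, control replicate 2 included, exceeded that of the deleted tumours for the same 6 genes. The low values of control replicate 2 enter that SD, so this is no separate observation. On 55 of the 56 gene and array combinations the value lay above the 95th percentile of the receptor genes of that array, and the exception was Casp6 on control replicate 2.

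**Figure D3:**
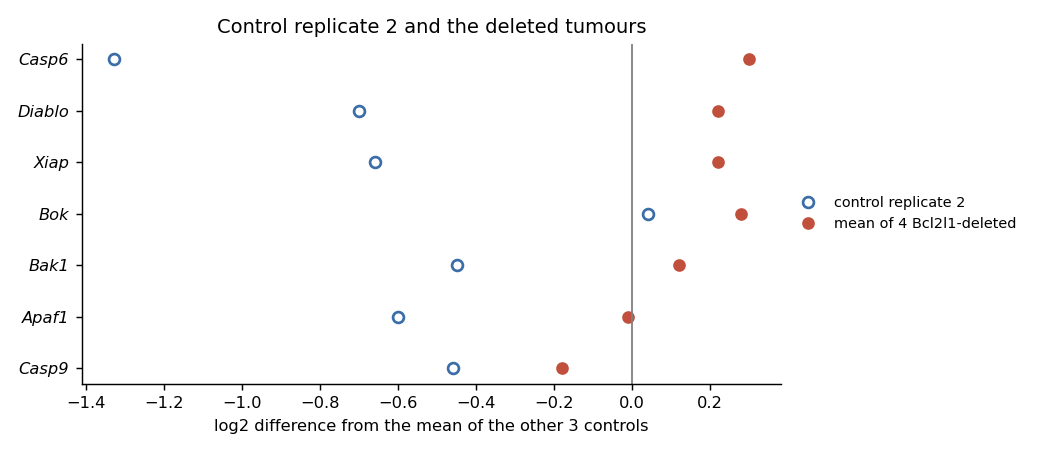
The horizontal axis gives the log2 difference from the mean of the 3 other controls, for control replicate 2 (open circles) and for the mean of the 4 Bcl2l1-deleted tumours (filled circles). Control replicate 2 lies from -1.33 (Casp6) to -0.45 (Bak1) for 6 genes and at 0.04 for Bok, while the deleted tumours lie between -0.18 and 0.30.

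The genes most like Casp6 over the 8 arrays, by the root-mean-square difference of mean-centred log2 values, were Ints4, Abhd14a, Ints6 and Fam76a at 0.10 and Chek1 at 0.11, where the median of the 13927 genes compared was 0.45. Ints4 and Ints6 encode subunits of the Integrator complex, which processes small nuclear RNAs, and Chek1 encodes a kinase of the DNA damage checkpoint. Ints4 read 9.30, 9.31, 9.13 and 9.36 in the deleted tumours and 8.96, 7.60, 9.18 and 8.92 in the controls, with the same low control replicate 2 and high control replicate 3. Chek1 read 8.12, 7.86, 7.92 and 8.15 and then 7.42, 6.47, 8.11 and 7.47. None of the 5 passed (limma, adjusted p = 0.147 to 0.202). They were picked on these same arrays for being like Casp6, so their result had to lie near its own and is no separate test.

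Under 19 other settings, among them other scalings, covariates and each array left out, 0 of the 133 combinations of gene and setting passed. Casp6, Diablo, Xiap and Bok kept a fitted change above 0 in all 19, but their lowest values were 0.05, 0.07, 0.06 and 0.01. Bak1 turned below 0 in 2, Apaf1 in 5, and Casp9 turned above 0 in 2.

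**Figure D4:**
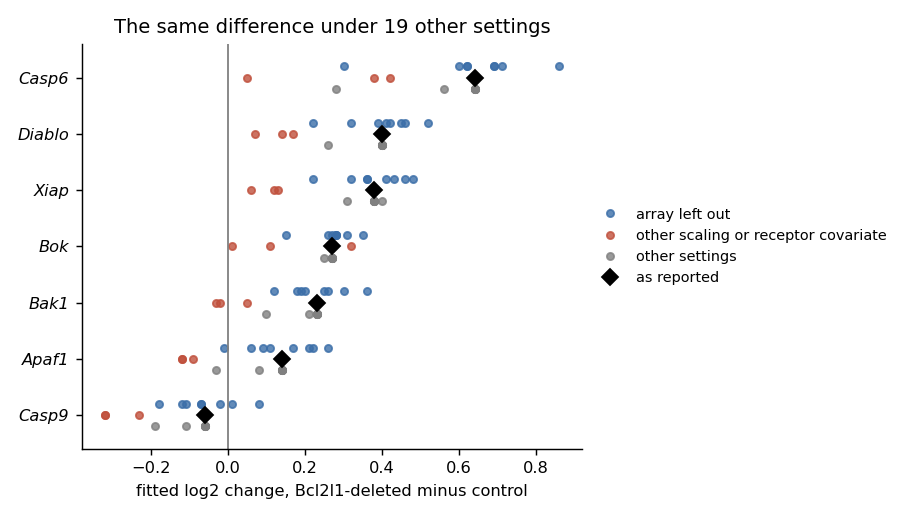
The fitted log2 change of each gene as reported (diamonds) and under 19 other settings: with an array left out (blue), with other scaling or the receptor median as a covariate (red) and the rest (grey). Casp6 runs from 0.05 to 0.86 and Casp9 from -0.32 to 0.08, and 0 of these 133 values passed the test.

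The wider route was described with 6 lists of 73 genes, of which 67 were tested. In them 3 genes rose, 1 fell and 63 did not pass, so that 5.97% were called, beside 6.52% of all tested genes. Groups did not overlap for 18 of the 67 (26.9%, beside 23.4%). The 4 that passed were a BH3-only gene, a DNA repair gene and a pair of p53 targets.

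Around the apoptosome 0 of 9 tested genes passed (3 at an unadjusted p under 0.05), with a median change of 0.36. Casp8, the initiator caspase of death receptors, read 7.42, 7.33, 7.39 and 6.93 in the deleted tumours and 6.64, 4.72, 6.82 and 6.12 in the controls, without overlap. The 4.72 on control replicate 2 lay below the 95th percentile of the receptor genes of that array. The Casp8 difference of 1.19 ± 0.38 did not pass (adjusted p = 0.0797). Without control replicate 2 it was 0.74 and passed (adjusted p = 0.0333), and it was 0.31 once the receptor median entered as a covariate (adjusted p = 0.360). Uaca, whose product nucling binds APAF1, was 0.72 ± 0.20 higher (adjusted p = 0.0540, and 0.0310 without Bcl2l1-deleted replicate 3). Without Bcl2l1-deleted replicate 1, 2 or 4 it did not pass (limma, adjusted p = 0.144, 0.158 and 0.134). With array weights both passed (adjusted p = 0.0225 for Casp8 and 0.0190 for Uaca), as did 3494 of all 15526 tested genes. Each of the 2 passed in 2 of the 19 other settings. The APAF1-binding inhibitor Aven (0.36, adjusted p = 0.128) and the cytochrome c gene Cycs (0.37, adjusted p = 0.169) did not pass.

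Among inhibitor of apoptosis proteins and their antagonists 0 of 9 passed (2 at an unadjusted p under 0.05), with a median of 0.16. Birc5, which encodes survivin and also serves in mitosis, was at 8.15, 7.82, 7.85 and 7.93 in the deleted tumours and at 7.40, 7.71, 7.17 and 6.77 in the controls. The difference was 0.68 ± 0.20 (adjusted p = 0.0645), and 0.83 without control replicate 2, where it passed (adjusted p = 0.0157). Birc3, which encodes cIAP2, had a difference of 0.46 ± 0.15 (adjusted p = 0.0819), and of 0.52 without control replicate 2, where it passed too (adjusted p = 0.0291). Thus 2 of the 9 passed without that array, where 2100 of all 15526 tested genes did. With array weights, where 3494 of all 15526 tested genes passed, the adjusted p was 0.00501 for Birc5 and 0.0101 for Birc3. Birc5 passed in 3 of 19 other settings and Birc3 in 2 of 18. The mitochondrial protease gene Htra2 had a difference of 0.28 (adjusted p = 0.260), and of 0.15 without control replicate 2. Septin4, a source of the XIAP antagonist ARTS, was 0.19 lower (adjusted p = 0.456). Of the other mitochondrial factors 0 of 10 passed (4 at an unadjusted p under 0.05), all 10 with a fitted change above 0, as 67.4% of all tested genes had, and a median of 0.30. The protease gene Oma1 (0.55 ± 0.18, adjusted p = 0.0853), the cristae gene Chchd3 (0.43 ± 0.14, adjusted p = 0.0865), Vdac2, whose channel binds BAK (0.40 ± 0.16, adjusted p = 0.119), and Aifm1, which encodes apoptosis-inducing factor (0.55 ± 0.22, adjusted p = 0.124; 0.32 without control replicate 2), had the smallest p. With array weights Oma1, Chchd3 and Vdac2 passed (adjusted p = 0.0267, 0.0248 and 0.0314), and Vdac2 also without control replicate 1 (0.52, adjusted p = 0.0422). With those weights 3494 of all 15526 tested genes passed. In the rest of the 19 other settings none of these genes did. With arrays centred on the genes tested they were at 0.30, 0.17 and 0.14 (limma, adjusted p = 0.143, 0.323 and 0.526). For caspase substrates 0 of 12 passed (1 at an unadjusted p under 0.05), with a median of 0.17, and the lamin gene Lmna (0.32 ± 0.13, adjusted p = 0.137), Parp1 (0.33, adjusted p = 0.234), the channel gene Panx1 (0.29, adjusted p = 0.290) and the actin-severing gene Gsn (-0.30, adjusted p = 0.318) led that list. Without control replicate 2 these were 0.17 for Parp1, 0.15 for Panx1 and -0.47 for Gsn, and none passed (limma, adjusted p = 0.324, 0.468 and 0.0610).

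Of 16 tested regulators of BAX and BAK 1 rose, 1 fell and 14 did not pass, with a median of 0.14. Hrk, a BH3-only gene of neurons whose product binds BCL-xL, fell by 1.35 ± 0.33 (2.55-fold, adjusted p = 0.0414). It read 5.29, 6.06, 5.61 and 6.26 in the deleted tumours and 7.75, 6.36, 7.74 and 6.75 in the controls, without overlap, and without control replicate 2 the change was -1.61 (adjusted p = 0.0131). The call was lost without any one of the 4 deleted arrays (adjusted p = 0.0635 to 0.134) and without control replicate 1, 3 or 4 (0.0532, 0.0741 and 0.0768). Markers of differentiating granule neurons moved the same way: 6 of 10 fell (8 of 10 without control replicate 2, where 2100 of all 15526 tested genes passed). The mean log2 level of these markers was 5.88 to 7.32 in the deleted tumours and 7.52 to 8.56 in the controls. Their part in the lower Hrk was not tested. Xrcc6, the DNA end-joining gene Ku70 whose product also binds BAX, rose by 0.56 ± 0.15 (adjusted p = 0.0478; 0.0208 without control replicate 2), but did not pass with arrays centred on the genes tested (0.31, adjusted p = 0.112). Its call also ended without any one deleted array (adjusted p = 0.0913 to 0.145) and without control replicate 3 or 4 (0.0741 and 0.0920). The guardian gene Mcl1 was 0.45 ± 0.16 higher (adjusted p = 0.0926) and Bcl2l11, which encodes BIM, 0.44 ± 0.22 (adjusted p = 0.198). The Mcl1 value depended on the probe set, as the mean of its probe sets gave 0.15 (limma, adjusted p = 0.509). For Bcl2l11 the difference was 0.20 without control replicate 2, and adding the receptor median as a covariate brought it to 0.00.

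Of 11 tested p53 and E2F1 genes 2 rose, none fell and 9 did not pass, with a median of 0.21. Perp, a p53 target of cell junctions, rose by 0.89 ± 0.21 (adjusted p = 0.0375). Its 4 deleted tumours stood at 5.54, 5.56, 5.62 and 5.46 and the controls at 5.15, 4.09, 4.84 and 4.54, with control replicate 2 the lowest again. On control replicates 2 and 4 Perp lay below 4.61, the lowest 95th percentile of the receptor genes on any array. Its difference thus rests in part on values near background. Ccng1, the p53 target cyclin G1, rose by 0.67 ± 0.18 (adjusted p = 0.0474), from 8.41, 7.68, 8.32 and 8.14 in the controls to 8.87, 8.80, 8.82 and 8.76. Without control replicate 2 these changes were 0.70 (adjusted p = 0.0183) and 0.52 (adjusted p = 0.0189). Without any one deleted array neither passed (Perp 0.0782 to 0.118, Ccng1 0.0942 to 0.144), nor without control replicate 3 (0.0562 and 0.0618) or 4 (0.0959 and 0.106). Once the receptor median entered as a covariate the changes were 0.50 (adjusted p = 0.0930) and 0.37 (adjusted p = 0.135). Aen (0.31, adjusted p = 0.212) and Sesn1 (0.36, adjusted p = 0.281) did not pass, and Sesn1 was at -0.06 with that covariate. They were at 0.20 and 0.13 without control replicate 2.

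**Figure D5:**
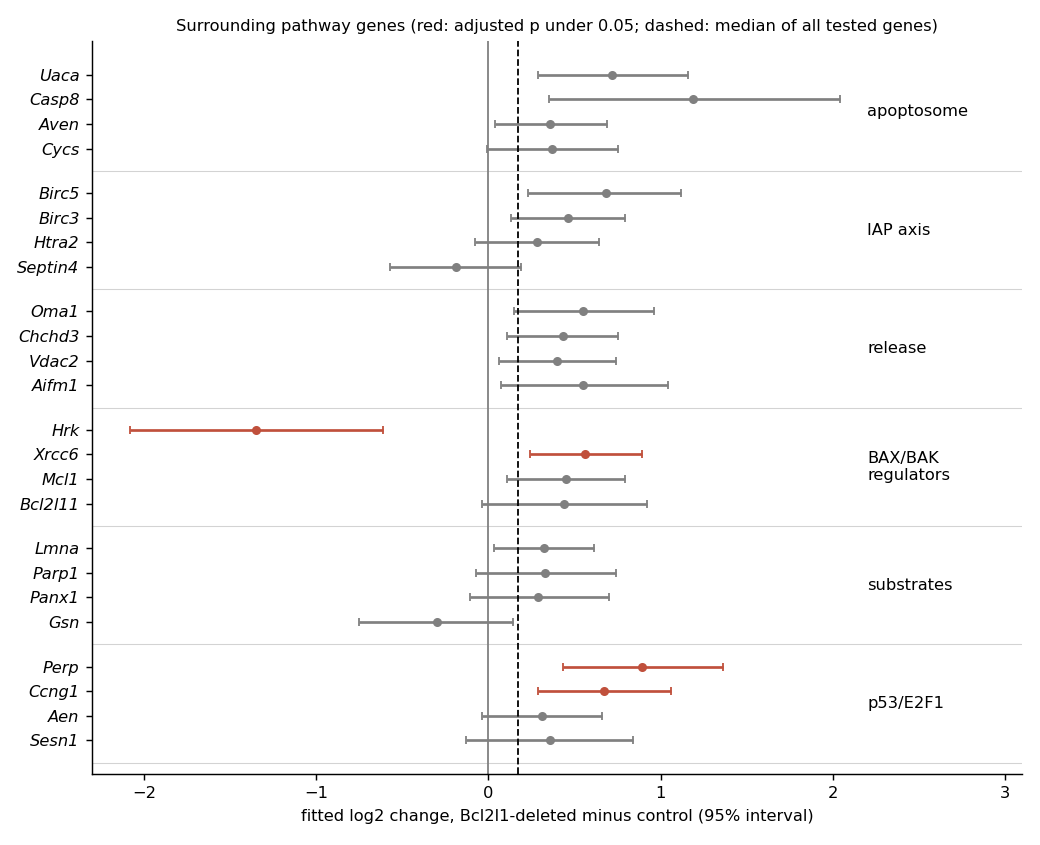
Fitted log2 changes (points, 95% intervals as bars) of the 4 genes with the smallest p in each of 6 lists around the execution genes, with the median of all tested genes dashed at 0.17. Hrk lies at -1.35 and Xrcc6, Perp and Ccng1 at 0.56, 0.89 and 0.67 (red, adjusted p under 0.05), and the other 20 did not pass.

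Marker lists of other cell types were read beside these genes, with the mean log2 level of each list on each array. Of 9 tested microglia markers 6 rose, and the list's level was 8.03 to 8.18 in the deleted tumours and 6.60 to 7.56 in the controls. Of 6 endothelial markers 4 rose (7.14 to 7.28 against 6.25 to 6.64), and of 5 fibroblast markers 4 rose (7.18 to 7.85 against 5.80 to 6.49). Of 7 astrocyte markers 3 rose and 4 did not pass, and the levels overlapped (9.05 to 9.76 against 7.97 to 9.35). Of 9 oligodendrocyte markers 2 fell and 7 did not pass, again with overlap (6.25 to 7.68 against 7.32 to 8.67). Of 4 choroid plexus markers 2 fell (5.23 to 5.81 against 7.16 to 7.64), and of 4 Purkinje cell markers 0 passed, with 0 at an unadjusted p under 0.05 (limma, 5.05 to 9.37 against 7.68 to 8.80). Without control replicate 2, 5 of 5 fibroblast and 4 of 9 oligodendrocyte markers passed in those directions, and the counts of the other 5 of these lists were as before. Of all 15526 tested genes 2100 passed without that array, against 1013 with all 8 arrays. The part of these cell types in the values of the execution genes was not tested.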

How the data were processed

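The authors deposited 1 value per probe set and array, which per the labels are RMA expression values from Partek's gene expression workflow, on a log2 scale between 0.68 and 13.2. RMA removes background, is meant to bring arrays to a common scale and combines the probes of a set, which compresses differences near background. The deposited arrays still differed in scale, with medians over all probe sets from 4.765 (Bcl2l1-deleted replicate 1) to 5.169 (control replicate 2). Partek's version, its options and a genome build were not given in the sources used here. Groups were taken from the titles, which match the genotypes. A status field reads deleted for all 8 samples and was not used.

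Of 41345 probe sets 23521 had 1 gene symbol, 1814 several and 16010 none. Symbols were checked through Entrez identifiers against RefSeq (GRCm38.p6), which matched 23328 and altered 0. The probe set with the highest mean stood for each gene. Genes whose mean did not exceed the 30th percentile (4.38) were left out, which removed 6654. All 7 measured members passed. The genotypes were compared with lmFit and eBayes of limma 3.58.1 under R 4.3.3 (no covariate, two-sided, Benjamini-Hochberg adjustment over 15526 genes), and every adjusted p is from this fit unless called otherwise. Permutation tests were exact. No batch or litter is given, and the number of arrays limits the precision.

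The named genes are the members, Bcl2l1, the 4 genes with the smallest p in each pathway list, and the 5 genes most like the member with the smallest p, leaving out predicted genes, small RNAs and receptors. Members and lists were chosen with earlier results of these data known. Alternatives were other dim filters, priors, weights, scalings, covariates, a replicate block, the mean of probe sets, and each array left out. The settings were run for single pathway genes as well, and the marker lists without control replicate 2, both chosen after seeing the data.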

Additional observations from a re-analysis of the deposited data

Results flagged for a closer look

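Of 74 groups of 4 arrays looked at for the genes named, 4 held an array whose gap to the others exceeded Dixon's critical value, where chance gives about 1 in 20. Bcl2l11 stood at 5.95 on control replicate 2, against 6.87 to 6.93 on the other controls. Aen stood at 5.23 on the same array, against 5.62 to 5.67. Ints4, one of the genes most like Casp6, stood at 7.60 there, against 8.92 to 9.18. Among the deleted arrays Gsn stood at 6.13 on replicate 3, the other 3 reading 6.35 to 6.38. None of the 7 execution genes had such an array in either group.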

How the results depend on the processing

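Same-numbered arrays of the groups did not deviate together (correlations of -0.038 to 0.012). The labels state no pairing, and these correlations over all genes cannot exclude one. With the replicate number as a block 508 genes passed in place of 1013, and 0 of the 7 execution genes. The count was 548 without a dim filter, 3494 with array weights and 200 with Xist as a covariate, and 20 to 2100 with each array left out, lowest without Bcl2l1-deleted replicate 1 and highest without control replicate 2. It was 1999 without control replicate 1, 157 without control replicate 4, 461 without control replicate 3, and 47, 453 and 223 without Bcl2l1-deleted replicates 2 to 4. Of called genes 75.5% were higher, but 51.5% after quantile normalization, 40.3% once the receptor median entered as a covariate and 35.8% when each array was centred on its tested genes. The cause of these moves was not tested. The decrease of Bcl2l1 passed in all 19 alternatives. Hrk passed in 9 of 19, Ccng1 in 8 of 19, Perp in 7 of 18 and Xrcc6 in 6 of 19, each in the reported direction, and with the block none of the 4 passed (adjusted p = 0.0731, 0.0739, 0.0553 and 0.0900). For the 4 pairs of members 0 passed in 11 alternatives, the lowest adjusted p being 0.0628 for Casp9 minus Casp6 with the replicate block (limma). Apart from the block these were exact permutation tests, where a single fully separated pair reaches an adjusted p of 0.114. The count of 0 therefore says little about the stability of the pairs.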
